A study of Mus musculus with 6 samples.

Results

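The BCL2 family genes were followed in RNA-seq libraries of colon intestinal epithelial cells (IECs) from mice given dextran sodium sulphate (DSS), a detergent-like polymer that injures the colonic epithelium. The 10 members were taken by gene symbol from a table of 55487 genes, each had exactly 1 row, and all 10 passed the filter on low counts. They were 3 pro-survival genes (Bcl2, Bcl2l1 and Mcl1), 2 effectors (Bax and Bak1) and 5 BH3-only genes (Bcl2l11, Bbc3, Pmaip1, Bid and Bad). The 3 libraries labelled WT (Nsd2f/f) came from mice whose Nsd2 gene, which encodes a histone H3 lysine methyltransferase, is flanked by loxP sites and left in place. The 3 libraries labelled NSD2-FF-VILCRE (Nsd2Vil-KO) came from mice of the same floxed line that also carry Cre under the Villin promoter, which is active in the intestinal epithelium. All 6 libraries are from DSS-treated mice, so DSS is common to both genotypes and its own effect was not measured. The study described the mice as C57BL/6J littermates. The day on which the IECs for RNA-seq were taken is not given in the sources used here, and the labels do not say that replicates are separate mice, so p-values measure only the spread between these samples.

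The BCL2 family decides whether a stressed cell opens the outer membrane of its mitochondria and dies by apoptosis. The effectors BAX and BAK form pores that release cytochrome c, the pro-survival proteins BCL-2, BCL-XL (Bcl2l1) and MCL-1 hold the effectors in check, and the BH3-only proteins answer damage signals by binding the pro-survival proteins or by activating the effectors. In the gut, survival of the epithelium rests largely on BCL-XL and MCL-1, PUMA (Bbc3) is known from radiation injury of crypts, and loss of epithelial cells is part of DSS colitis. The study asked whether Nsd2 loss in the epithelium alters the survival of IECs. By staining, it reported more apoptotic cells (TUNEL and cleaved caspase-3) in DSS-treated Nsd2Vil-KO mice, and more apoptosis in organoids without NSD2. By Western blot, it also reported caspase-3 activation in colonic crypts of Nsd2Vil-KO mice. The transcripts of this family are 1 other level at which that question can be asked. Much of the family's control acts on the proteins, through phosphorylation of BAD, cleavage of BID and rapid turnover of MCL-1, and is not seen in RNA.

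What the members share is the BH3 motif, a short helix through which they bind each other, and its core is shown here because it is the element that both the pro-survival and the pro-death members carry. The core was searched in each member's coding sequence as a leucine codon, 2 codons of any kind, a codon for alanine, isoleucine, methionine or valine, a codon for glycine, alanine or serine, and an aspartate codon, followed by 3 further codons. Each of the 9 stretches below holds 27 bases of a GENCODE vM21 transcript, in the sense direction from 5′ to 3′, and capitals mark the fifth and sixth codons (glycine, alanine or serine, then aspartate). The pair of codons in capitals encodes glycine and aspartate in every printed member except Bbc3, which has alanine, and Bad, which has serine, before the aspartate.
Bcl2, chr1:106712575-106712601, minus strand, exon 1: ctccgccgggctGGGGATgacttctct
Bcl2l1, chr2:152829697-152829723, minus strand, exon 2: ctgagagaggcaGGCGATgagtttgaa
Mcl1, chr3:95659436-95659462, plus strand, exon 1: ctgcggcgcgtgGGCGACggcgtgcag
Bax, chr7:45465997-45466023, minus strand, exon 3: ctccggcgaattGGAGATgaactggac
Bak1, chr17:27022531-27022557, minus strand, exon 4: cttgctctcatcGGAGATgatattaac
Bcl2l11, chr2:128147150-128147176, plus strand, exon 3: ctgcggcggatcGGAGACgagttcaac
Bbc3, chr7:16313773-16313799, plus strand, exon 3: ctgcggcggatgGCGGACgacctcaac
Bid, chr6:120897289-120897315, minus strand, exon 4: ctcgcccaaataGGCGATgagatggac
Bad, chr19:6950792-6950818, plus strand, exon 3: ctccgaaggatgAGCGATgagtttgag
Coordinates are those of GRCm38. Each printed member held the pattern exactly once in its coding sequence, and Pmaip1, whose sequence is not printed, held it 2 times. Among the 36 pairs of these stretches, between 11 bases (Bcl2 and Bak1) and 22 bases (Bcl2l11 and Bbc3) of the 27 were identical. The pattern is short, and 1923 of 21812 coding genes (8.82%) held it, so a match describes the letters and not a function.

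Depth and identity of the libraries bear on every value below. Between 15439123 and 20350539 reads were counted per library. Nsd2 was at 47.9, 51.2 and 24.6 CPM (reads of a gene scaled to a common library size after TMM normalisation) in Nsd2f/f replicates 1, 2 and 3, and at 24.2, 10.4 and 20.8 CPM in Nsd2Vil-KO replicates 1, 2 and 3. Its log2 fold change was −1.16 (standard error 0.39, unadjusted p = 0.0217 and adjusted p = 0.992 from edgeR), and Nsd2f/f replicate 3 lay next to Nsd2Vil-KO replicate 1. Nsd2Vil-KO replicate 2 and Nsd2f/f replicate 3 stood apart from the rest. These held 3684 and 4296 counts of Xist against 1 to 5 in the other 4, and their Spearman correlations with other libraries across genes were 0.924 to 0.945 against 0.972 to 0.984 among the other 4. Mitochondrial genes took 19.6% of the counts in Nsd2f/f replicate 3 and 5.51% to 9.13% elsewhere. Epithelial markers were abundant in all 6 libraries, with a summed 15495 to 25720 CPM led by Lgals4 and Krt8, against 37.6 to 222 CPM for pan-leukocyte markers, which fits the label of IECs. In RNA from many cells, fewer cells of a type and less RNA per cell cannot be told apart.

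None of the 10 members passed the screening criterion in edgeR's quasi-likelihood test. The criterion, a fold change above 1.2 with a p below 0.05, is that of the study's results and was read here as an unadjusted p, while its methods name an adjusted p, so both counts are given. Of all 14650 tested genes, 482 (3.29%) passed it, and 0 genes reached an adjusted p below 0.05. No member had an unadjusted p below 0.05 in edgeR, in DESeq2 or in limma-voom with quality weights, where 4.32% (DESeq2) and 9.83% (limma-voom) of all tested genes passed the criterion. DESeq2 called 4 of all genes (0.0273%) at an adjusted p below 0.05. The 95% interval of the log2 fold change included 0 for all 10 members. Of the members, 3 had a log2 fold change above 0 (50.1% of all tested genes did) and 7 below 0, with a median of −0.23 against 0.0012 over all tested genes. In the 4 libraries without Xist the median was −0.14, against −0.00030 over all genes, and 2 members had the other sign. The adjusted p was 0.996 for Bid and 0.992 for each other member (edgeR with Benjamini-Hochberg adjustment over the tested genes).

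**Figure D1:**
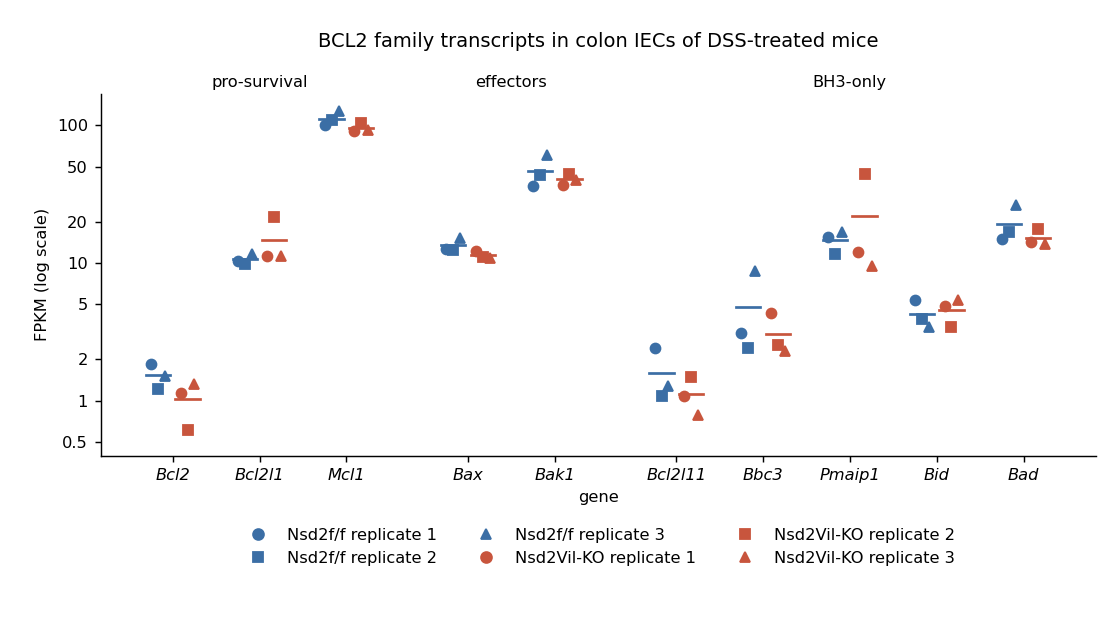
FPKM of the 10 members in each library on a log axis, grouped by role. Blue symbols are Nsd2f/f and red symbols Nsd2Vil-KO libraries, the symbol gives the replicate, and short bars are genotype means (n = 3). Mcl1 is highest in every library, and Nsd2Vil-KO replicate 2 lies apart for Bcl2 (0.612 FPKM), Bcl2l1 (21.6 FPKM) and Pmaip1 (44.5 FPKM).

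Among the pro-survival genes, the mean of Bcl2 and Mcl1 was lower and that of Bcl2l1 higher in Nsd2Vil-KO, each with an interval that included 0. Bcl2 (ENSMUSG00000057329, chromosome 1 from 106538178 to 106714274), the founding member of the family, had the smallest p of the 10. It was at 16.8, 11.2 and 13.9 CPM in Nsd2f/f replicates 1, 2 and 3 and at 10.4, 5.60 and 12.2 CPM in Nsd2Vil-KO replicates 1, 2 and 3. Nsd2Vil-KO replicate 2 was the lowest library, and the genotypes overlapped because Nsd2f/f replicate 2 lay below Nsd2Vil-KO replicate 3. The genotype means were 14.0 ± 2.81 and 9.38 ± 3.39 CPM (SD, n = 3). Bcl2 had a log2 fold change of −0.58 (95% interval −1.39 to 0.24, unadjusted p = 0.14 from edgeR), and −0.31 without Nsd2Vil-KO replicate 2.

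Bcl2l1 (ENSMUSG00000007659, chromosome 2 from 152780668 to 152831728) encodes BCL-XL, and a short splice form of it with the opposite effect, BCL-XS, is counted in the same row. It was at 47.6, 45.3 and 53.5 CPM in Nsd2f/f and at 51.3, 99.1 and 51.2 CPM in Nsd2Vil-KO replicates 1, 2 and 3. Nsd2Vil-KO replicate 2 alone stood high, and the other 5 libraries lay between 45.3 and 53.5 CPM. The log2 fold change of 0.46 (95% interval −0.22 to 1.14, unadjusted p = 0.152 from edgeR) became 0.072 when that library was left out.

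Mcl1 (ENSMUSG00000038612, chromosome 3 from 95658788 to 95663176) encodes a pro-survival protein of short half-life, and its row also counts splice forms that lack the membrane anchor. It was at 344, 372 and 433 CPM in Nsd2f/f and at 311, 355 and 318 CPM in Nsd2Vil-KO replicates 1, 2 and 3. The genotypes overlapped only through Nsd2Vil-KO replicate 2, which lay above Nsd2f/f replicate 1. The genotype means were 383 ± 45.5 and 328 ± 23.5 CPM (SD, n = 3), and the log2 fold change was −0.22 (95% interval −0.68 to 0.24), or −0.12 without Nsd2f/f replicate 3. Mcl1 varied least among the members, with a coefficient of variation of 12.4% over the 6 libraries.

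The effectors lay slightly lower on average in Nsd2Vil-KO, by amounts inside their intervals. Bax (ENSMUSG00000003873, chromosome 7 from 45461697 to 45466898), the effector that moves from the cytosol to mitochondria, was at 20.02, 19.4 and 24.0 CPM in Nsd2f/f and at 19.2, 17.4 and 17.1 CPM in Nsd2Vil-KO. Bax was the only member whose genotypes did not overlap, while 9.9% of all tested genes did not overlap, and 4.7% of all tested genes did so with Nsd2Vil-KO lower. Nsd2f/f replicate 2 and Nsd2Vil-KO replicate 1 differed by little, at 19.4 and 19.2 CPM. Bax had a log2 fold change of −0.24 (95% interval −0.70 to 0.22, unadjusted p = 0.261 from edgeR), −0.14 without Nsd2f/f replicate 3 and −0.11 in the 4 libraries without Xist. An exact two-sided permutation test over libraries gave p = 0.1, the smallest p that 3 libraries against 3 allow. Any gene without overlap gets this value, so the test only restates the lack of overlap. For the other members the same permutation test gave p from 0.2 to 0.9.

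Bak1 (ENSMUSG00000057789, chromosome 17 from 27019810 to 27029009), the effector that resides on mitochondria, was at 87.4, 104 and 147 CPM in Nsd2f/f and at 88.2, 107 and 96.8 CPM in Nsd2Vil-KO. All 3 Nsd2Vil-KO libraries lay inside the range of the Nsd2f/f libraries, and Nsd2f/f replicate 3 was the highest. The log2 fold change of −0.21 (95% interval −0.75 to 0.33) became 0.025 without Nsd2f/f replicate 3. The FPKM ratio of Bak1 to Bax was 2.86, 3.51 and 4.01 in Nsd2f/f and 3.01, 4.02 and 3.71 in Nsd2Vil-KO, so Bak1 was the more abundant effector transcript per length in every library.

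Pmaip1, Bbc3 and Bcl2l11 varied most over the 6 libraries among the members, with coefficients of variation of 71.5%, 63.8% and 41.9%, while those of Bid and Bad were 21.3% and 27.1%. Pmaip1 (ENSMUSG00000024521, chromosome 18 from 66458533 to 66465565) encodes NOXA, a p53 target that binds MCL-1. It was at 42.1, 31.9 and 46.2 CPM in Nsd2f/f and at 32.9, 122 and 25.8 CPM in Nsd2Vil-KO. Nsd2Vil-KO replicate 2 held 2192 counts of Pmaip1 against 505 to 849 in the other libraries, while Nsd2Vil-KO replicate 1 lay inside the Nsd2f/f range and replicate 3 below it. Pmaip1 had a log2 fold change of 0.58 (95% interval −0.76 to 1.93, unadjusted p = 0.338 from edgeR), −0.45 without that library and −0.32 in the 4 libraries without Xist, so its direction rested on 1 library.

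Bbc3 (ENSMUSG00000002083, chromosome 7 from 16308393 to 16318205) encodes PUMA, a p53 target that binds all pro-survival members. It was at 6.59, 5.14 and 18.7 CPM in Nsd2f/f and at 9.21, 5.44 and 4.90 CPM in Nsd2Vil-KO. Nsd2f/f replicate 3 was the high library and the other 5 lay between 4.90 and 9.21 CPM. Bbc3 had a log2 fold change of −0.62 (95% interval −1.91 to 0.67) with all libraries and 0.15 without Nsd2f/f replicate 3.

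Bcl2l11 (ENSMUSG00000027381, chromosome 2 from 128126038 to 128162547) encodes BIM, a FoxO target and direct activator of the effectors. It was at 19.4, 8.75 and 10.3 CPM in Nsd2f/f and at 8.68, 11.98 and 6.28 CPM in Nsd2Vil-KO. Nsd2f/f replicate 1 alone stood high, and Nsd2Vil-KO replicate 2 lay above the other 2 Nsd2f/f libraries. The log2 fold change of −0.52 (95% interval −1.46 to 0.43, unadjusted p = 0.237 from edgeR) became −0.080 without Nsd2f/f replicate 1 and −0.78 without Nsd2Vil-KO replicate 2. Nsd2f/f replicate 1 also held the highest summed CPM of the fibroblast list (263 against 5.05 to 69.9). The same library was highest for the monocyte and macrophage list (211 against 9.37 to 77.1) and the pan-leukocyte list (222 against 37.6 to 98.7). The part of these lists in the value of Bcl2l11 was not tested.

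Bid (ENSMUSG00000004446, chromosome 6 from 120891930 to 120916853), which links death receptors to mitochondria once caspase-8 cleaves it, was at 19.2, 13.8 and 12.2 CPM in Nsd2f/f and at 17.3, 12.1 and 19.2 CPM in Nsd2Vil-KO. The ranges of the genotypes nearly coincided, with a log2 fold change of 0.10 (95% interval −0.56 to 0.77). Bad (ENSMUSG00000024959, chromosome 19 from 6941861 to 6951899), which growth factor signalling holds inactive through phosphorylation, was at 38.2, 43.0 and 67.2 CPM in Nsd2f/f and at 36.3, 45.3 and 34.9 CPM in Nsd2Vil-KO. Nsd2f/f replicate 3 was again the highest library. Bad had a log2 fold change of −0.35 (95% interval −0.95 to 0.25), and −0.061 without that library.

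**Figure D2:**
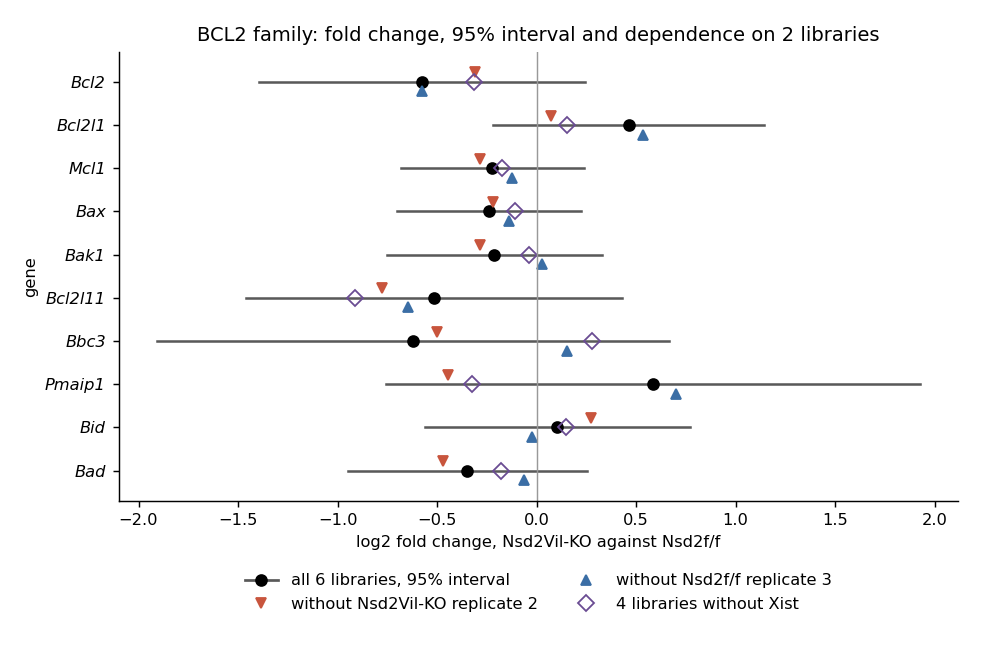
Log2 fold change of each member, Nsd2Vil-KO against Nsd2f/f, from edgeR. Black points and lines are the values and 95% intervals with all 6 libraries, triangles are the values without Nsd2Vil-KO replicate 2 or Nsd2f/f replicate 3, and diamonds are the 4 libraries without Xist. All 10 intervals include 0, and Pmaip1 (0.58 against −0.45) and Bbc3 (−0.62 against 0.15) have the other sign without 1 library.

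Some extreme values of the members lay in the 2 libraries that stood apart, and others lay elsewhere. In Nsd2Vil-KO replicate 2, 3 members (Bcl2, Bcl2l1 and Pmaip1) lay more than 1.5 times outside the range of the other 5 libraries, as did 20.9% of all tested genes. In Nsd2f/f replicate 3 this held for 1 member (Bbc3) and for 14.7% of all tested genes. Nsd2f/f replicate 3 was the highest library for 5 of the 10 members and for 23.7% of all tested genes. Outside these 2 libraries, Nsd2Vil-KO replicate 3 was the lowest library for 5 members, for which no share over all genes was counted. Bcl2l11 was highest in Nsd2f/f replicate 1, at 19.4 CPM against 6.28 to 11.98 CPM elsewhere. On the log2 scale, Nsd2Vil-KO replicate 2 differed from the geometric mean of the Nsd2f/f libraries by 1.62 for Pmaip1, 1.03 for Bcl2l1 and −1.30 for Bcl2, while Nsd2Vil-KO replicates 1 and 3 differed by −0.27 and −0.62, 0.076 and 0.073, and −0.41 and −0.18 for the same genes. Nsd2Vil-KO replicate 2 also had the highest sum of the neutrophil list, 2353 CPM against 198 to 884. Of its 6 members, only Ly6g (1355 CPM against 163 to 237), S100a8 (574 against 3.07 to 197) and S100a9 (405 against 4.69 to 357) were highest there. The receptors Csf3r, at 0.666 CPM in that library, and Cxcr2, at 5.10 CPM, were not (the single genes besides Ly6g and S100a9 were chosen after their values were seen). Cycling and crypt base markers summed to 248 CPM in Nsd2Vil-KO replicate 2 and 160 CPM in Nsd2f/f replicate 3, against 635 to 864 CPM in the other 4. The part of these cell states in the members' values was not tested.

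The balance of pro-survival with pro-death members overlapped between the genotypes. The balance was taken in each library as the mean log2 CPM of Bcl2, Bcl2l1 and Mcl1 minus the mean log2 CPM of the 7 effector and BH3-only genes. It was 1.35, 1.45 and 1.16 in Nsd2f/f replicates 1, 2 and 3 and 1.29, 1.16 and 1.61 in Nsd2Vil-KO replicates 1, 2 and 3. The genotype means of the balance were 1.32 ± 0.15 and 1.36 ± 0.23 (SD, n = 3), a difference of 0.035 against a pooled SD of 0.20. The sign of this difference rested on single libraries, at −0.094 without Nsd2Vil-KO replicate 3 and −0.047 without Nsd2f/f replicate 3, and without Bcl2 the difference was 0.27 against a pooled SD of 0.18. As a sum over members, the balance is a description and carries no p.

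Per length the 3 pro-survival members were the larger part of the summed FPKM of the 10 members in every library. In Nsd2Vil-KO replicate 2 the parts were nearly equal, at 126 FPKM for pro-survival and 125 FPKM for pro-death members. The pro-survival share of the members' summed FPKM was 55.6%, 56.7% and 51.3% in Nsd2f/f and 54.8%, 50.2% and 56.1% in Nsd2Vil-KO. Relatives outside the 10 members were not counted, such as Bok (29.5 FPKM) and Bcl2l2 (11.0 FPKM) in Nsd2Vil-KO replicate 2. The shares therefore hold for the 10 members only and could differ if relatives were counted. Mcl1 alone made up 46.4% to 51.5% of the members' FPKM in Nsd2f/f and 41.3% to 49.5% in Nsd2Vil-KO. The lowest shares, of both Mcl1 and the pro-survival group, were in Nsd2Vil-KO replicate 2, where Pmaip1 took 17.7% of the members' FPKM against 5.02% to 7.58% in the other libraries.

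Ratios between members within a library do not depend on its scaling. Of the 45 pairs of members, 6 had FPKM ratios that did not overlap between genotypes, and Bcl2l1 was a partner in 5 of them. The pairs share members and libraries, so the count is a description and carries no test, and the ratios named here were chosen after their values were seen. The share of such pairs among other genes was not counted, so the count cannot be called high or low. The FPKM ratio of Mcl1 to Bcl2l1 was 9.69, 11.0 and 10.9 in Nsd2f/f and 8.14, 4.803 and 8.34 in Nsd2Vil-KO. The ratio of Bcl2l1 to Bax was 0.817, 0.8001 and 0.766 in Nsd2f/f and 0.918, 1.96 and 1.03 in Nsd2Vil-KO. The ratio of Bcl2l1 to Bad was 0.696, 0.587 and 0.444 in Nsd2f/f and 0.789, 1.22 and 0.817 in Nsd2Vil-KO. The ratio of Bcl2l1 to Bcl2 was 5.64, 8.05 and 7.69 in Nsd2f/f and 9.86, 35.3 and 8.41 in Nsd2Vil-KO, so the genotypes were close but did not overlap. The ratio of Bcl2l1 to Bcl2l11 was 4.30 to 9.13 in Nsd2f/f and 10.3 to 14.5 in Nsd2Vil-KO. In all 5 the direction was the same, with Bcl2l1 higher relative to its partner in Nsd2Vil-KO. That every library separated follows from picking pairs without overlap, and the 5 pairs share the values of Bcl2l1. Bcl2l1 itself, at 51.3 and 51.2 CPM in Nsd2Vil-KO replicates 1 and 3, lay inside the Nsd2f/f range of 45.3 to 53.5 CPM. The sixth pair was Bcl2 with Bid, at 0.315 to 0.442 in Nsd2f/f and 0.179 to 0.245 in Nsd2Vil-KO. The ratio of Mcl1 to its partner Pmaip1 overlapped, at 6.54 to 9.32 in Nsd2f/f and at 7.55, 2.33 and 9.86 in Nsd2Vil-KO.

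**Figure D3:**
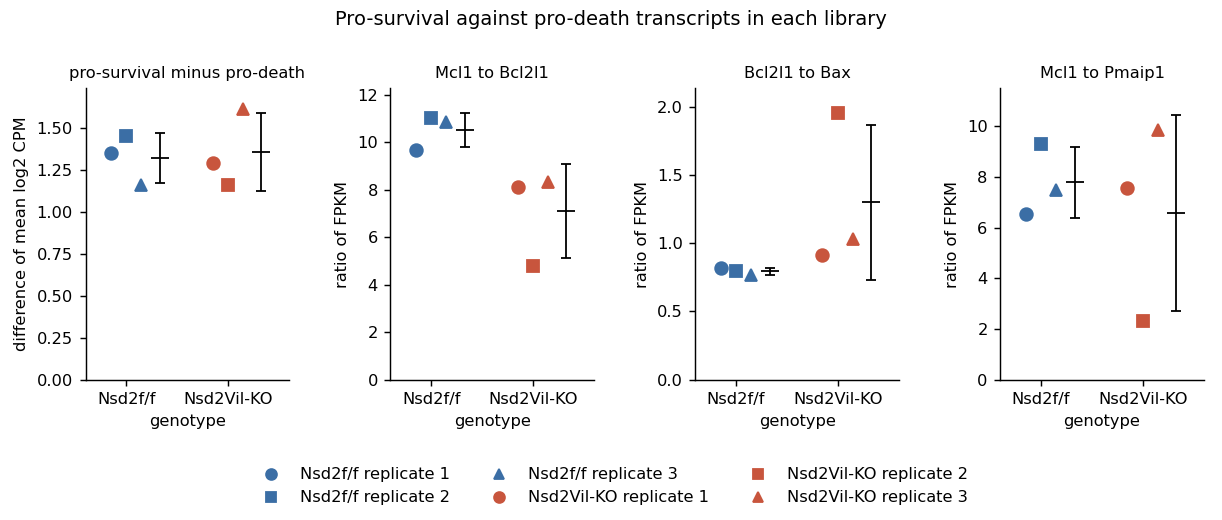
Balance of pro-survival and pro-death members and 3 FPKM ratios in each library, with genotype mean and SD beside the points (n = 3). The balance overlaps between genotypes (1.16 to 1.45 and 1.16 to 1.61), and Nsd2Vil-KO replicate 2 (red square) is the extreme library of each ratio.

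Levels of different genes were compared per length, as FPKM averaged over the 6 libraries. Mcl1 was the most abundant member at 104 ± 12.9 FPKM (SD, n = 6), followed by Bak1 at 43.7 ± 9.13 FPKM. Pmaip1 (18.3 ± 13.1), Bad (17.3 ± 4.68), Bcl2l1 (12.6 ± 4.44) and Bax (12.4 ± 1.58) followed in FPKM, and the ranges of neighbours in this order overlapped. Bid (4.41 ± 0.94), Bbc3 (3.92 ± 2.50), Bcl2l11 (1.36 ± 0.57) and Bcl2 (1.28 ± 0.41) were the lowest in FPKM. Only 2 of the 9 steps in this order, from Mcl1 to Bak1 and from Bax to Bid, separated neighbours whose ranges did not overlap. Bcl2 lay below Bcl2l1 in each library, and Mcl1 above both.

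Likeness between members was described by Pearson's r of log2 CPM over the 6 libraries, which mix both genotypes and share the libraries that stood apart. Of 45 pairs, 4 had an r above 0.9. These were Bak1 with Bad (0.957), Mcl1 with Bad (0.956), Bcl2l1 with Pmaip1 (0.918) and Mcl1 with Bak1 (0.905). Bcl2l1 and Pmaip1, a pro-survival and a pro-death gene, were both highest in Nsd2Vil-KO replicate 2. Bax was most like Bbc3 (0.884), Bcl2l11 most like Pmaip1 (0.469), Bid most like Bcl2 (0.524) and Bcl2 most like Bax (0.539). The lowest r was that of Bcl2 with Bcl2l1 (−0.874). Over 13340 other genes averaging 1 CPM or more, those most like Bcl2 were Fgfr2 (0.994), a growth factor receptor, Galnt7 (0.991), a mucin-type glycosyltransferase, and Gm14097 (0.988). In all, 258 genes had an r above 0.9 with Bcl2 over these 6 points.

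Counts of 5 members can include reads of another gene if strand was not used in counting or a read was split. Exons shared with another gene came to 558 bases for Bcl2 (D630008O14Rik, opposite strand), 192 for Bax (Gm45808, same strand), 628 for Bid (Bcl2l13, opposite strand), 524 for Bad (Gpr137, opposite strand), and stretches of 177 and 437 bases for Bak1 (Ggnbp1, opposite strand). Bcl2l1, Mcl1, Bcl2l11, Bbc3 and Pmaip1 shared no exon with another gene.

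The surrounding pathway was read from 47 listed genes, of which 42 were tested and 0 passed the screening criterion in edgeR, with 0 at an unadjusted p below 0.05 in edgeR and DESeq2. In limma-voom with quality weights 4 of the 42 passed it, where 9.83% of all tested genes did. Log2 fold changes were above 0 for 25 and below 0 for 17 of the 42 genes, with a median of 0.10 against 0.0012 over all tested genes. In the 4 libraries without Xist, 7 of them passed the criterion, where 11% of all tested genes did. Genotypes did not overlap for 7 of the 42 (16.7%, against 9.9% of all tested genes), 6 with Nsd2Vil-KO higher (5.21% of all) and 1 with Nsd2Vil-KO lower.

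Among the other BCL2 relatives, 10 of 15 listed genes were tested, and the other 5 were near 0 (Bcl2a1a, Bcl2a1b, Bcl2l10, Hrk and Bcl2l15, each below 1.4 CPM in every library). Bcl2a1 copies are near-identical, so their counts are uncertain. Bcl2l13, a mitochondrial outer membrane protein, was at 48.7, 48.0 and 50.8 CPM in Nsd2f/f and at 51.0, 70.6 and 53.9 CPM in Nsd2Vil-KO, without overlap but with Nsd2f/f replicate 3 and Nsd2Vil-KO replicate 1 almost equal. Its log2 fold change was 0.25 (95% interval −0.18 to 0.68) and 0.096 without Nsd2Vil-KO replicate 2, and its exons overlap those of Bid on the opposite strand.

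Of the apoptosome and caspase genes, all 13 listed were tested, with a median log2 fold change of 0.071. Apaf1, the scaffold that cytochrome c assembles into the apoptosome, was at 61.3, 55.8 and 25.5 CPM in Nsd2f/f and at 64.4, 65.0 and 66.1 CPM in Nsd2Vil-KO. The Nsd2Vil-KO libraries were close together and above each Nsd2f/f library, of which replicate 3 was far the lowest. Apaf1 had a log2 fold change of 0.45 (95% interval −0.29 to 1.198), and 0.16 without that library. Casp9, the initiator caspase that the apoptosome activates, was at 22.9, 21.7 and 23.2 CPM in Nsd2f/f and at 28.9, 30.4 and 26.6 CPM in Nsd2Vil-KO, with both genotypes tight. Its log2 fold change was 0.34 (95% interval −0.065 to 0.74, unadjusted p = 0.088 from edgeR). Casp9 passed the criterion in a fit that took Xist as a covariate (unadjusted p = 0.0429 from edgeR, where 7.82% of all genes passed). It also passed in limma-voom (unadjusted p = 0.0271, where 9.83% of all genes passed). It missed the criterion in the 4 libraries without Xist (unadjusted p = 0.0514 from edgeR), in DESeq2 (unadjusted p = 0.0731) and with each library left out. Cycs, which encodes cytochrome c, was among the most abundant pathway genes at 91.0 FPKM, and its log2 fold change was −0.016 (95% interval −0.57 to 0.54). The 6 caspases of the list had a median log2 fold change of 0.23, and 4 were above 0.

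Among inhibitors of apoptosis proteins (IAPs) and their antagonists, all 7 listed were tested and 6 had a log2 fold change above 0. Xiap, which blocks caspases directly, was at 75.7, 72.8 and 78.4 CPM in Nsd2f/f and at 87.5, 89.4 and 106 CPM in Nsd2Vil-KO. All 3 Nsd2Vil-KO libraries lay above the Nsd2f/f libraries. Xiap, a gene on chromosome X, had a log2 fold change of 0.32 (95% interval −0.059 to 0.70, unadjusted p = 0.087 from edgeR). In the 4 libraries without Xist it was 0.39 and passed the criterion (unadjusted p = 0.0162 from edgeR, where 11% of all genes passed). Xiap also passed with Xist as covariate (unadjusted p = 0.0486 from edgeR, 7.82% of all genes) and in limma-voom (unadjusted p = 0.0106, 9.83% of all genes). It missed the criterion in DESeq2 (unadjusted p = 0.0847) and with each library left out. Diablo, whose product SMAC relieves IAP inhibition, was low, at 1.24, 1.24 and 1.21 CPM in Nsd2f/f and at 1.95, 1.83 and 2.55 CPM in Nsd2Vil-KO. Its log2 fold change of 0.78 (95% interval −0.11 to 1.66, unadjusted p = 0.0781 from edgeR) had the smallest p of the 42. Diablo passed the criterion in limma-voom (unadjusted p = 0.0208) and where each library needed 10 counts (unadjusted p = 0.0368 from edgeR), but not in DESeq2 (unadjusted p = 0.0925). Its exons share 1193 bases with Gm49027 on the same strand, and 1326 with B3gnt4 and 122 with AC157931.1 on the opposite strand. This count may therefore miss reads of the gene or, if strand was not used, hold reads of others.

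The mitochondrial channels and upstream regulators, 12 listed and all tested, had a median log2 fold change of 0.10. Vdac1 and Vdac2, the outer membrane channels of which VDAC2 is a known platform of BAK and BAX, were the most abundant genes of the list at 167 and 118 FPKM. Vdac1 was at 350, 368 and 540 CPM in Nsd2f/f and at 319, 686 and 369 CPM in Nsd2Vil-KO, with the high values in the 2 libraries that stood apart, and Vdac2 had the same pattern at 427 to 682 CPM and at 411, 835 and 508 CPM. Ddit3, the stress factor CHOP that is known to repress Bcl2 and to induce Bcl2l11, was at 10.6, 10.6 and 11.8 CPM in Nsd2f/f and at 9.26, 8.27 and 8.17 CPM in Nsd2Vil-KO, in the larger of 2 rows with this symbol. Its log2 fold change was −0.36 (95% interval −0.92 to 0.20). Fbxw7, a ubiquitin ligase adaptor that targets MCL-1, was at 17.4, 17.96 and 14.5 CPM in Nsd2f/f and at 19.7, 21.5 and 18.2 CPM in Nsd2Vil-KO, a log2 fold change of 0.25 (95% interval −0.23 to 0.73) and of 0.11 in the 4 libraries without Xist. Trp53, named here after its values were seen because Pmaip1 and Bbc3 are its targets, was at 11.4 CPM in Nsd2Vil-KO replicate 2, the library with the most Pmaip1, against 50.8 to 60.5 CPM in the other 5.

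**Figure D4:**
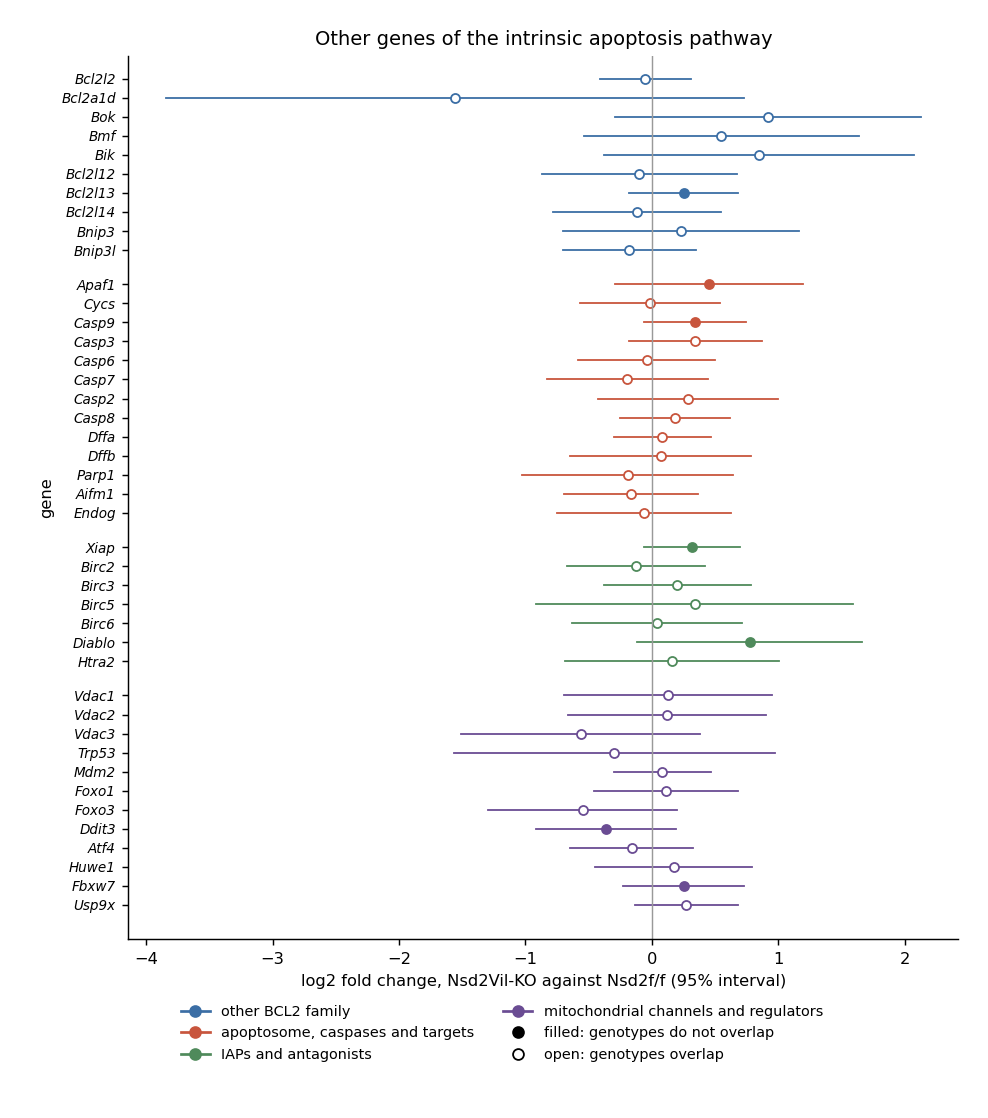
Log2 fold change with 95% interval for the 42 tested genes of the surrounding pathway, Nsd2Vil-KO against Nsd2f/f, coloured by group. Filled points mark the 7 genes whose genotypes do not overlap in CPM, and every interval includes 0.

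Markers of the cell types that an IEC preparation can hold were summed per library, and 1 of the 12 lists did not overlap between genotypes. Of single tested genes, 9.9% did not overlap. The goblet cell list, led by Muc2 and Agr2, summed to 14098 to 16375 CPM in Nsd2f/f and to 9866 to 11062 CPM in Nsd2Vil-KO. Surface colonocyte markers, led by Ceacam1 and Car4, summed to 3689 to 8548 CPM in Nsd2f/f, with the highest value in replicate 3, and to 3923 to 4932 CPM in Nsd2Vil-KO. The cycling and crypt base list was led by Mki67 and Top2a, the pan-leukocyte list by Lcp1 and Coro1a, the neutrophil list by Ly6g and S100a9, the monocyte and macrophage list by Lyz2 and C1qa, and the fibroblast list by Col3a1 and Col1a2. T cell and intraepithelial lymphocyte markers (led by Gzmb and Gzma) stayed between 11.6 and 37.9 CPM, and B and plasma cell markers (led by Jchain and Cd79a) between 6.05 and 49.0 CPM. Smooth muscle (Acta2 and Des) reached 14.9 CPM and endothelium (Pecam1 and Kdr) 3.32 CPM at most. No listed marker was at 0 in all libraries. The part of these cell types in the members' values was not tested.

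**Figure D5:**
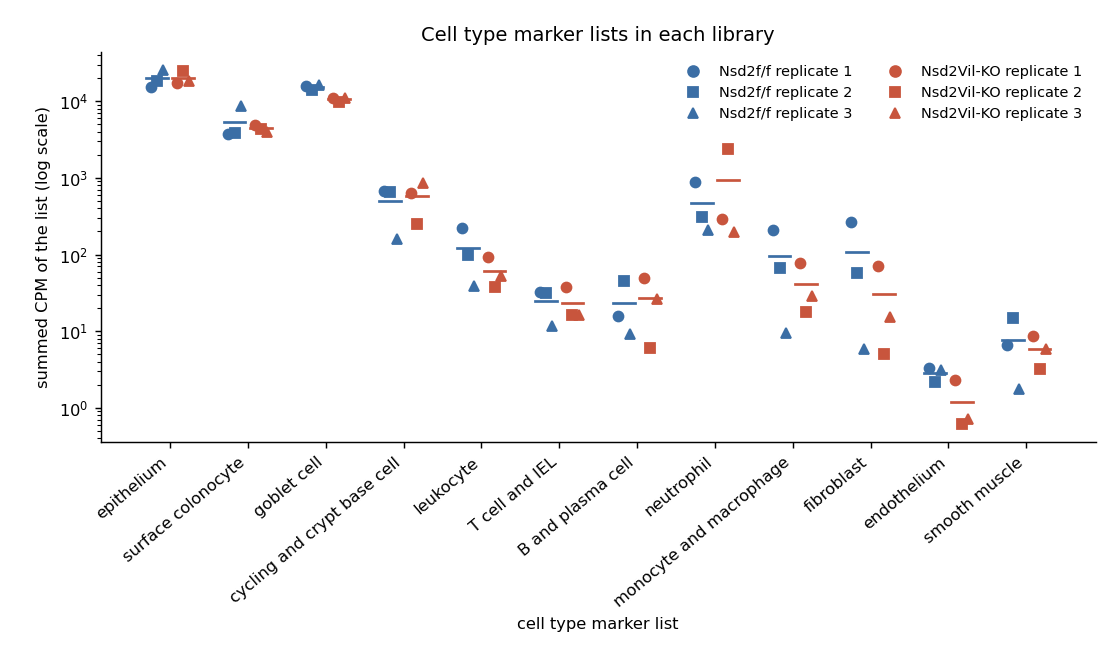
Summed CPM of each cell type marker list in each library on a log axis, with genotype means as short bars (n = 3; blue Nsd2f/f, red Nsd2Vil-KO). The goblet cell list is the only list without overlap, and Nsd2Vil-KO replicate 2 has the highest neutrophil sum (2353 CPM).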

How the data were processed

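RNA-seq of IECs was analysed in 6 libraries, 3 per genotype. Per the study's methods, polyA RNA was trimmed with Cutadapt and Trimmomatic and aligned with HISAT2 to GRCm38 (mm10 in the submitters' processing notes). The authors deposited raw counts of reads per gene, neither normalised nor filtered. How reads were counted, and whether strand was used, is not given in the sources used here, and labels and methods name different library kits. All 6 columns were used.

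The whole table was fitted in edgeR 4.0.16 under R 4.3.3 (TMM, filterByExpr by genotype, robust quasi-likelihood test, no covariate). Intervals rest on the moderated degrees of freedom, and the biological coefficient of variation was 41.2%. FPKM was computed from TMM-scaled CPM and GENCODE vM21 exon lengths, in which 99.5% of listed genes were found. Log2 CPM used a prior count of 2. A floor of 3 counts per library equals 0.147 to 0.194 CPM. The test was checked on counts simulated for 14279 genes. Of 200 given a log2 change of 2, the test returned 54.5% at an adjusted p below 0.05, and 92% met the screening criterion. The members' log2 fold changes lay between −0.62 and 0.58, and no change of that size was simulated. These percentages therefore do not say how often changes of the members' size would be found.

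The text names all members and Nsd2, pathway genes past the criterion, without overlap or among the 3 highest in FPKM, and 2 genes per marker list. A further marker list is not reported here. The members, gene lists and tests were chosen with earlier results of these data known. Alternatives were RLE factors, library size only, other filters, DESeq2 1.42.0, limma 3.58.1 voom, no robust estimation, a replicate block, Xist as covariate or exclusion, mitochondrial genes left out, other fold limits and each library left out in turn. Amino acid sequences were not used here.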

Additional observations from a re-analysis of the deposited data

How the results depend on the processing

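The count of BCL2 family members past the screening criterion was 0 under all 19 alternatives. Of 170 recomputed log2 fold changes of members, 161 kept their direction and their side of the criterion and 9 turned. When single libraries were left out, the turning members lay between −0.37 and 0.025 (Bak1), −0.96 and 0.15 (Bbc3), −0.45 and 0.95 (Pmaip1), and −0.034 and 0.32 (Bid), and Bak1, Bbc3 and Bid (−0.022) turned without Nsd2f/f replicate 3, Pmaip1 without Nsd2Vil-KO replicate 2 and Bid also without Nsd2Vil-KO replicate 3. In the 4 libraries without Xist, Bbc3 was 0.28 and Pmaip1 −0.32, and in limma-voom 0.097 and −0.27. The balance of pro-survival and pro-death members lay between −0.094 (without Nsd2Vil-KO replicate 3) and 0.13 with each library left out, was −0.047 without Nsd2f/f replicate 3, −0.041 as a log2 ratio of summed CPM and 0.27 without Bcl2.

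Among the pathway genes, 7 passed the criterion in the 4 libraries without Xist (Bcl2a1d, Xiap, Birc6, Htra2, Foxo1, Atf4 and Huwe1), 4 in limma-voom, 3 with Xist as covariate, 1 where each library needed 10 counts, and 0 to 2 with a library left out (2 without Nsd2Vil-KO replicate 2). With each library left out, Cycs lay between −0.20 and 0.12, Vdac1 between −0.29 and 0.35, and Vdac2 between −0.23 and 0.33. Cycs was 0.037 with library size only, and Vdac1 and Vdac2 were −0.053 and −0.010 in the 4 libraries and −0.059 and −0.027 in limma-voom. The 482 genes past the criterion became 1646 in the 4 libraries, 1145 with Xist as covariate, 1440 in limma-voom, 861 without a filter, 279 at a fold change limit of 2, and 323 to 769 with a library left out (769 without Nsd2Vil-KO replicate 2). Nsd2 missed the criterion with library size only (−1.12) and without Nsd2f/f replicate 1 or 2, and lay between −1.42 and −0.87 with each library left out. The cause of these changes was not tested.

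The labels do not say whether replicate numbers pair the samples. Same-numbered libraries had correlations of deviations of 0.32, −0.35 and −0.11, against −0.36 to 0.31 for differently numbered ones. With 3 libraries per genotype, of which 1 in each stood apart, these values cannot show or exclude pairing. With a replicate block 303 of all genes and 0 members passed the criterion.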
